A study of Homo sapiens with 2 samples.

Results

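Transcripts of 48 genes that fold, degrade and export proteins of the endoplasmic reticulum (ER) were compared between Huh-7 cells given DEPDC1 siRNA and Huh-7 cells given NC, the control as it is named by the submitters. Huh-7 is an established human hepatocellular carcinoma line, and DEPDC1 encodes a DEP domain protein. Total RNA was taken 72 h after transfection and hybridised to 1 array per group, which leaves no replicate spread, and differences are given without a test. The sources used here do not say what NC consists of or how many siRNAs were used. The 48 genes, called members below, were taken from a list by their symbol in the array annotation, out of 18417 genes with a probe set of their own. Of these 48 genes, 46 had such a probe set, and all 46 were detected. A gene was called detected if its higher value was at least 4.66, the median over the whole array. In all 46 genes both values lay above that threshold. Both probe sets that list PDIA3 also list its pseudogene PDIA3P1, so PDIA3 is given no value. SEC61G was not analysed here.

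Secreted and membrane proteins enter the ER through the Sec61 translocon, where chaperones of the HSP70 and HSP90 type, lectin chaperones and protein disulfide isomerases fold them. Folded cargo leaves in vesicles with a COPII coat, while misfolded cargo is pulled back to the cytosol and destroyed by the proteasome, a route called ER-associated degradation. When unfolded protein accumulates, the sensors IRE1 (gene ERN1), PERK and ATF6 start the unfolded protein response. ATF6 and the transcription factor XBP1 then act on ER stress response elements in the promoters of chaperone genes. Hepatocytes secrete most plasma proteins and carry a heavy load on this pathway.

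The target transcript DEPDC1 had a log2 value of 7.82 with NC and 5.15 with siRNA, which is 6.37-fold lower. Of 15 hepatocyte line markers, 13 were measured and all 13 were detected. ALB (albumin) was at 11.89 with NC and 11.39 with siRNA. Each difference below is siRNA minus NC, in log2 units. Over the 11352 detected genes they had a median of 0.00 and an SD of 0.397, with quartiles of -0.18 and 0.21. Different probe sets of the same gene disagreed by a median of 0.0866, and at the 90th percentile by 0.413, over 444 genes.

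Because ER stress response elements are a known shared control of these genes, the promoters of the members were searched for them. The windows came from RefSeq (GRCh38.p14) and ran from 250 bases before to 50 bases after each start. The element ERSE was spelled as CCAAT, then 9 bases of any kind, then CCACG. ERSE-II was spelled as ATTGG, then 1 base of any kind, then CCACG. The XBP1 motif was TGACGTGG, and every motif was sought on both strands. An ERSE was present in 0.0769% of the 35116 promoter windows and in 0.0916% of the 27305 genes in the table. Of the 44 members in the table, 8 (18.2%) held it. As the element is a known control of these genes, its share among them is no result of these data. The sites are shown because they are a feature that some members of different roles share. Each runs 5′ to 3′ on the strand that reads CCAAT first, with the fixed bases in capitals.
HSPA5: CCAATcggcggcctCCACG
HSP90B1, distal: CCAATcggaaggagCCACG
HSP90B1, proximal: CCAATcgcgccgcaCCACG
CALR: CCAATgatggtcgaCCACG
CANX: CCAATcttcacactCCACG
PDIA6: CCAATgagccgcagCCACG
ERO1LB: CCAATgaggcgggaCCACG
CRELD2: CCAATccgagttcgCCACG
XBP1: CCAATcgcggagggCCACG

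The sites lie at chr9:125241391-125241409 (HSPA5), chr12:103930216-103930234 and chr12:103930321-103930339 (HSP90B1), chr19:12938384-12938402 (CALR) and chr5:179698778-179698796 (CANX). The others lie at chr2:10812853-10812871 (PDIA6), chr1:236282183-236282201 (ERO1LB, listed by RefSeq as ERO1B), chr22:49918554-49918572 (CRELD2) and chr22:28800603-28800621 (XBP1). CANX has 4 windows in the table, and 3 of them hold its site. The site of CRELD2 also lies in the promoter window of its neighbour ALG12, a mannosyltransferase gene on the other strand that is no member. Read from ALG12 it spans bases -134 to -116, and read from CRELD2 bases -80 to -62.

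The ERSE-II sequence was present in 0.0541% of windows, in 0.0696% of genes and in 3 members (6.82%). HYOU1 held it at 2 places, and the distal one overlapped an XBP1 motif. These shorter sites read as follows, again with the fixed bases in capitals.
HYOU1: ATTGGaCCACG
HERPUD1: ATTGGgCCACG
SDF2L1: ATTGGtCCACG

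The stretches around 4 of the ERSE members are given on the strand of the gene, up to the base before the start at most, because these members hold a large chaperone, the pair of sites or the largest differences among ERSE holders. Capitals mark the fixed bases of ERSE, which read CGTGG and ATTGG where the element lies on the other strand. The stretch of HSPA5 covers bases -116 to -1 (chr9:125241344-125241459, minus strand). That of HSP90B1 covers -244 to -21 (chr12:103930166-103930389, plus strand), that of CALR -250 to -157 (chr19:12938359-12938452, plus strand) and that of CRELD2 -130 to -12 (chr22:49918504-49918622, plus strand).
HSPA5: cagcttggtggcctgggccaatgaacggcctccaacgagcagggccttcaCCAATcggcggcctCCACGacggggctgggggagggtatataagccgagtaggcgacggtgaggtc
HSP90B1: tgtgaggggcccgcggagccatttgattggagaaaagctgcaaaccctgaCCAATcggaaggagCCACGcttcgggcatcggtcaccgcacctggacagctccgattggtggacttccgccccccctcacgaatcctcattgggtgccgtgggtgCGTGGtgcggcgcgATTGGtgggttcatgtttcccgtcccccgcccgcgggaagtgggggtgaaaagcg
CALR: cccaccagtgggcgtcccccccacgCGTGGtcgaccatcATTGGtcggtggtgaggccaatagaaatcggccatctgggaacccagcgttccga
CRELD2: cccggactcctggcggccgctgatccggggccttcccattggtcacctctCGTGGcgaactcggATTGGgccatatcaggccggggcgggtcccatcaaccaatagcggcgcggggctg

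Differences of the 46 measured members were small. None reached 2-fold in either direction, against 1.94% of detected genes higher and 0.863% lower by that much. At a log2 difference of at least 0.32, the lowest size counted here, 8 members (17.4%) were higher and 2 (4.35%) were lower. The same size was reached by 16.7% of detected genes upward and 12.0% downward, so the share of higher members lay near the background. At 1.5-fold, CALR, CRELD2 and EDEM2 were higher and SEC23B lower, which is 6.52% and 2.17% of the members against 6.03% and 3.74% of detected genes. Any difference above 0 was seen in 30 of 46 members (65.2%) and in 49.9% of detected genes. The median over the members was 0.10. The members were bright, with a median level of 8.32 against 6.36 over all detected genes. Among 3700 detected genes at or above the lower quartile of the members' level, 16.9% were higher and 14% lower by at least 0.32, with a median of 0.00.

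**Figure D1:**
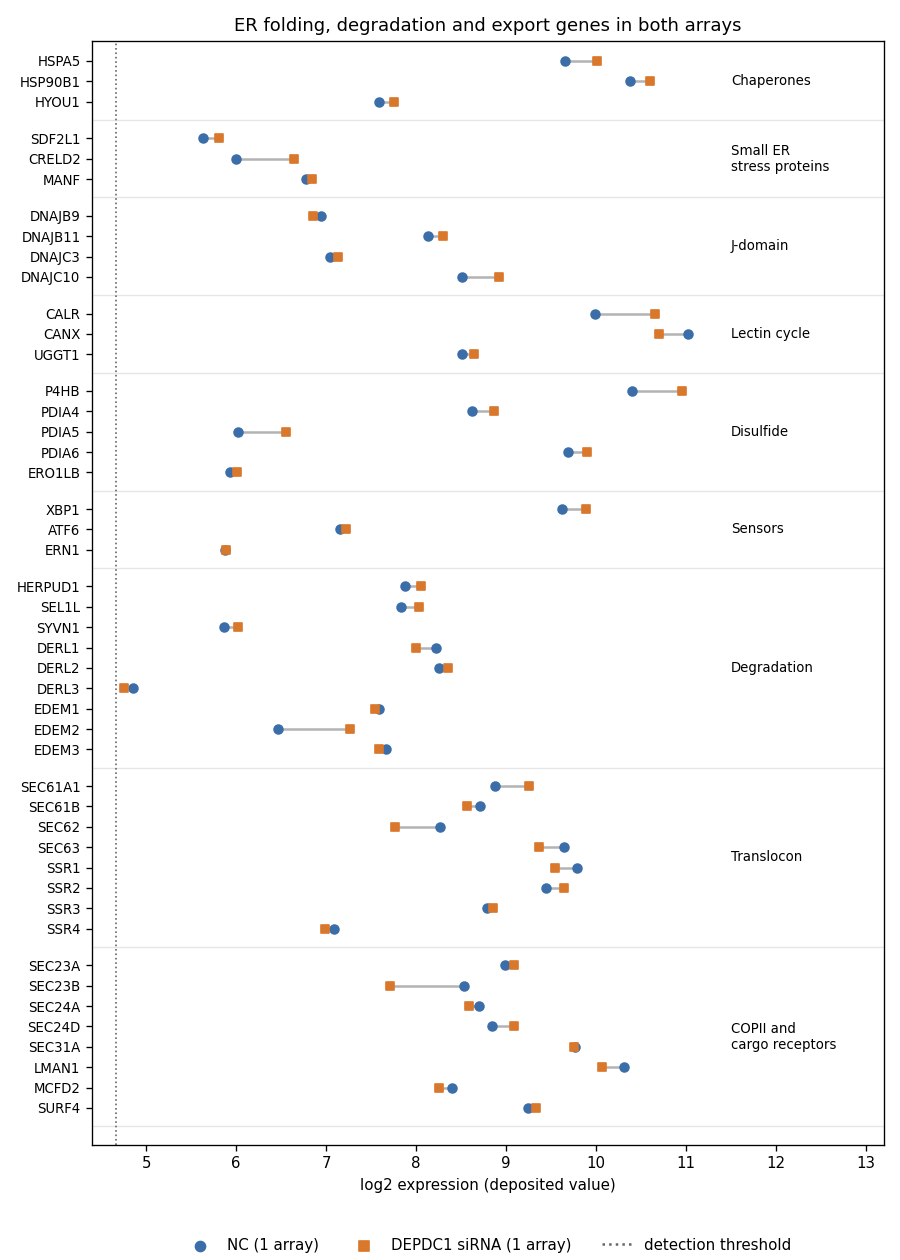
Deposited log2 expression (x axis) of the 46 measured members in the NC array (blue circles) and the DEPDC1 siRNA array (orange squares), 1 array each, ordered by role; the dotted line is the detection threshold of 4.66. The squares lie to the right of the circles in HSPA5, HSP90B1, HYOU1 and the 5 measured disulfide genes, and to the left in 10 of the 16 translocon and export genes.

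**Figure D2:**
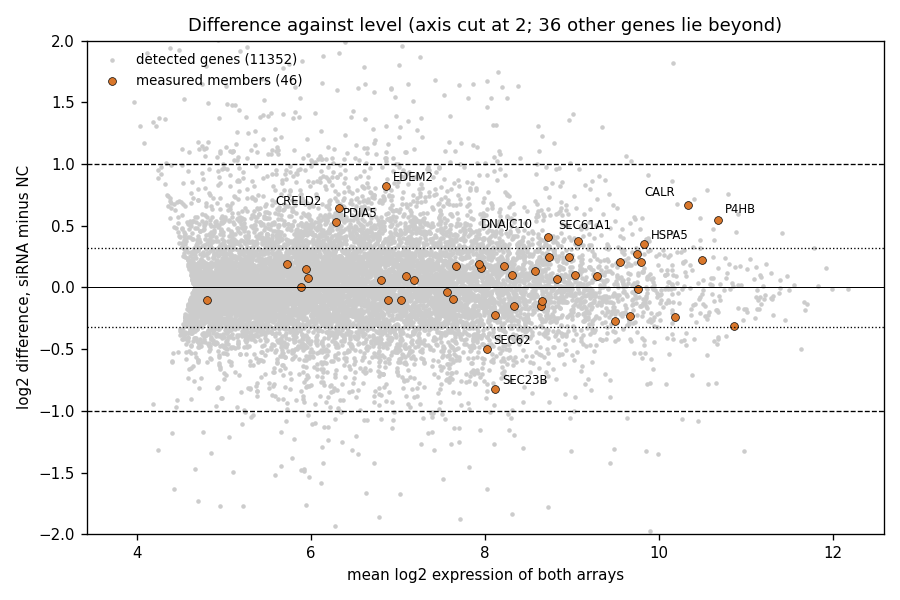
Log2 difference, siRNA minus NC, against the mean log2 expression of both arrays for 11352 detected genes (grey) and the 46 measured members (orange); dotted lines mark a difference of 0.32 in either direction and dashed lines 2-fold, and the axis ends at 2, beyond which 36 other genes lie. All members lie between the 2-fold lines, and the 10 labelled members are those past 0.32.

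Among the members, the direction differed between the folding roles and the translocon and export roles. Of all detected genes, 49.9% were higher. In the 5 folding roles (chaperones, small stress proteins, J-domain proteins, lectin cycle and disulfide genes) 16 of 18 measured members were higher and 2 lower, with a median of 0.20. In the translocon and export roles 6 of 16 were higher and 10 lower, with a median of -0.10. By at least 0.32, 33.3% of the folding members were higher and 0% lower, and 6.25% and 12.5% of the others. The shares of all detected genes were 16.7% and 12.0%. Some signs rest on differences under 0.0866, the median disagreement of probe sets, such as MANF (0.06) and SEC31A (-0.01). Roles were joined in this way after the values had been seen, and the difference between these sets was not tested. Of other ER folding genes, listed below, 22 of 30 were higher, with a median of 0.35. For other COPII and export genes it was 20 of 30 (median 0.15), and for signal recognition genes 15 of 20 (median 0.04). The lower direction of the translocon and export members was thus not seen in those lists.

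The large chaperones were all higher. HSPA5, the HSP70 of the ER also called BiP, binds unfolded chains and holds the stress sensors inactive. It was at 9.66 with NC and 10.01 with siRNA, 1.27-fold higher. HSP90B1, the HSP90 of the ER (GRP94), went from 10.38 to 10.60, a difference of 0.22. HYOU1, a nucleotide exchange factor for HSPA5, went from 7.59 to 7.76, a difference of 0.17. Of these, only HSPA5 passed 0.32.

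Small proteins induced by ER stress were higher to unequal degrees. CRELD2, an ER-resident protein with EGF-like repeats, was at 6.0 and 6.64, which is 1.56-fold higher and at the 94.8th percentile of the differences of detected genes. Its neighbour ALG12, on the other side of the shared ERSE, was at 6.93 and 7.30, 1.29-fold higher. ALG12 was picked after its value was seen, and a part of the shared site in either difference was not tested. SDF2L1, which works with ER J-domain proteins, differed by 0.19 (5.63 against 5.81). MANF, a secreted stress factor that also binds HSPA5, differed by 0.06 (6.78 against 6.84). Both lay inside the quartiles of all detected genes.

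The J-domain proteins recruit HSPA5 to its clients. DNAJC10, which is also a disulfide reductase, was at 8.51 and 8.92, 1.32-fold higher. DNAJB11 differed by 0.17 (8.13 against 8.30) and DNAJC3, known as p58IPK, by 0.09 (7.04 against 7.13). DNAJB9, a repressor of the sensor IRE1, was the member of this role with a lower value, at 6.94 and 6.85. Apart from DNAJC10 the role stayed within 0.32.

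In the lectin cycle the soluble and the membrane chaperone differed in sign. CALR (calreticulin), the soluble calcium-binding lectin, was at 9.99 and 10.66, which is 1.59-fold higher and at the 95.3th percentile. CANX (calnexin), its membrane-bound relative, was at 11.02 and 10.70, a difference of -0.31, just short of the size counted. UGGT1, the glucosyltransferase that returns unfolded glycoproteins to both lectins, differed by 0.13 (8.51 against 8.64). CALR and CANX both hold an ERSE.

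All 5 measured disulfide genes were higher. P4HB, the archetypal protein disulfide isomerase, has 2 probe sets. The brighter was at 10.40 and 10.96, 1.47-fold higher, and the other at 9.45 and 10.23, 1.71-fold higher. PDIA5 was at 6.02 and 6.55, 1.44-fold higher. The isomerases PDIA4 and PDIA6 differed by 0.25 (8.62 against 8.87) and 0.21 (9.69 against 9.90). ERO1LB, an oxidase that recharges the isomerases, differed by 0.08 (5.93 against 6.01). P4HB and PDIA5 were the members of this role past 0.32.

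Among the stress sensors, the differences of ERN1 and ATF6 were within the quartiles of all detected genes. ERN1 was at 5.88 and 5.89 and ATF6 at 7.16 and 7.22, differences of 0.00 and 0.06. The sensor PERK (gene EIF2AK3), which is no member and was picked after its value was seen, was at 7.41 and 7.79, 1.31-fold higher. XBP1 was at 9.62 and 9.89, a difference of 0.27, which is 1.20-fold. IRE1 activates XBP1 by splicing its messenger RNA, and the value used here is for the whole gene, so spliced and unspliced forms cannot be told apart.

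Genes of ER-associated degradation went both ways, 5 of 9 higher and 4 lower. EDEM2, a mannosidase that starts the trimming of glycans on misfolded proteins, was at 6.46 and 7.27. It was 1.76-fold higher, the largest increase among the members and at the 96.8th percentile of detected genes. Its paralogs were not higher, EDEM1 being at 7.59 and 7.54 and EDEM3 at 7.67 and 7.59. In the membrane ligase complex, the ubiquitin ligase SYVN1 (HRD1) differed by 0.15 (5.87 against 6.02), its partner SEL1L by 0.19 (7.83 against 8.03) and HERPUD1, a stress-induced adaptor, by 0.16 (7.88 against 8.05). These 3 components were slightly higher, all by less than 0.32. The derlins, membrane proteins of the export channel, differed by -0.22 (DERL1, 8.22 against 8.0), 0.10 (DERL2, 8.26 against 8.36) and -0.10 (DERL3, 4.85 against 4.75). DERL3 lay next to the detection threshold in both arrays.

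Genes of the translocon and its partners went both ways, 3 of 8 measured members being higher and 5 lower. SEC61A1, the pore-forming subunit, was at 8.88 and 9.26, 1.30-fold higher. SEC61B, a small subunit of the same channel, differed by -0.15 (8.71 against 8.57). SEC62 and SEC63 assist import after translation, and SEC63 recruits HSPA5. SEC62 was at 8.27 and 7.77, 1.42-fold lower and at the 5.26th percentile. SEC63 was at 9.64 and 9.37, a difference of -0.27. Both partners were thus lower, SEC62 by more than 0.32 and SEC63 by less. The 4 subunits of the translocon-associated TRAP complex differed by -0.23 (SSR1, 9.79 against 9.55), 0.21 (SSR2, 9.44 against 9.65), 0.07 (SSR3, 8.79 against 8.86) and -0.10 (SSR4, 7.09 against 6.99). No subunit of TRAP passed 0.32.

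Export genes held the largest decrease. SEC23B, an inner COPII coat subunit, was at 8.53 and 7.71. It was 1.76-fold lower and at the 1.59th percentile of detected genes. Its paralog SEC23A, which can take its place in the coat, differed by 0.10 (8.99 against 9.09). The cargo adaptors SEC24A and SEC24D differed by -0.11 (8.70 against 8.59) and 0.25 (8.84 against 9.09), and the outer coat subunit SEC31A by -0.01 (9.77 against 9.76). LMAN1 and MCFD2 form the receptor that carries coagulation factors V and VIII out of the ER. LMAN1 was at 10.31 and 10.07 and MCFD2 at 8.40 and 8.25, so both were lower, by 0.24 and 0.15 on the log2 scale. SURF4, another cargo receptor, differed by 0.09 (9.24 against 9.33). Apart from SEC23B no export gene passed 0.32.

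By promoter, 10 of the 11 members with an ERSE or ERSE-II were higher and CANX was lower. Their median was 0.21, with a range of -0.31 to 0.67. Members in the promoter table without either had a median of 0.07, with 19 of 32 higher and a range of -0.82 to 0.82. EDEM2, P4HB, PDIA5, DNAJC10 and SEC61A1 were higher by more than 0.32 with neither motif in the window searched. The XBP1 motif was in 0.729% of windows and 0.927% of genes. It was in 7 members, 15.9% of those in the promoter table. Of these 7, 4 were higher and 3 lower, with a median of 0.07. DERL1, DERL3, PDIA3 and SEC24D have no entry in the promoter table. All translocon and export genes in the promoter table lay in the set without ERSE or ERSE-II, so the contrast mixes motif and role. These counts are descriptions of letters in a window, and the difference between the sets was not tested.

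**Figure D3:**
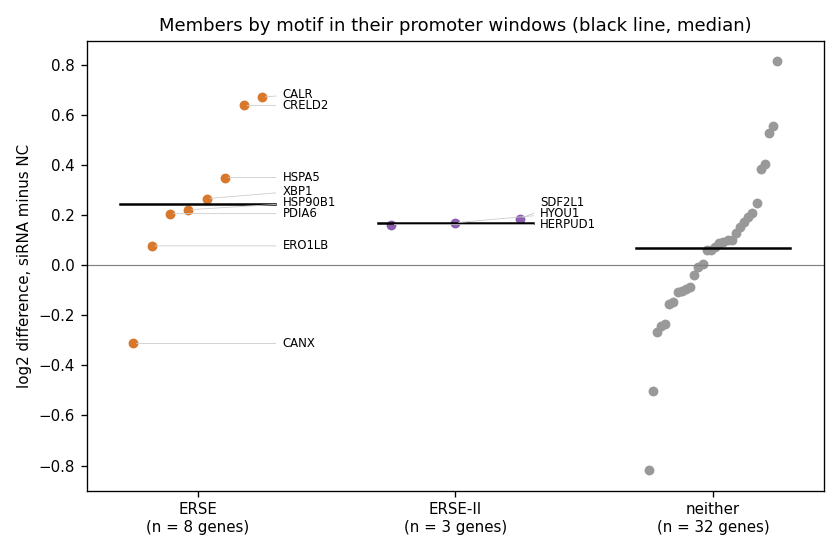
Log2 difference, siRNA minus NC (y axis), of the 43 measured members in the promoter table, by whether a window of theirs holds ERSE (8 genes), ERSE-II (3 genes) or neither (32 genes); black lines are medians and horizontal spread has no meaning. The medians are 0.24, 0.17 and 0.07, and CANX is the 1 gene with a motif that lies below 0. All translocon and export genes shown are in the class with neither motif.

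Other genes of the same pathway were followed in 7 companion lists. The 30 detected genes of other ER folding had a median of 0.35, with 16 higher and 2 lower by at least 0.32. GPX8, an ER peroxidase, was under the threshold with NC (3.98) and at 6.57 with siRNA, so it was at least 3.77-fold higher. SERPINH1, the collagen chaperone HSP47, was 3.12-fold higher (6.89 against 8.53) and PRDX4, the ER peroxiredoxin, 1.94-fold higher (8.34 against 9.30). Of 14 fibroblast and stellate cell markers, 7 were detected. LUM, FBN1 and COL1A2 were higher by 2.31, 2.19 and 1.07, so 3 of the 7 passed 2-fold upward, against 1.94% of detected genes. The other detected markers DES, PDGFRA, COL1A1 and COL3A1 differed by 0.11, 0.09, 0.06 and -0.04, and the median of the 7 was 0.11. The 7 markers DCN, THY1, ACTA2, PDGFRB, RGS5, LRAT and COL6A3 lay under the threshold in both arrays. The summed linear level of all 14 was 578 with NC and 1619 with siRNA. This sum is weighted to the brightest marker, LUM, at 7.64 with NC and 9.95 with siRNA in log2 units. The part of these markers in the result was not tested. Both cultures were labelled Huh-7, and bulk RNA does not show which share of the cells carried these transcripts.

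The PERK arm and other stress transducers had a median of 0.28 over 18 genes, 9 being higher and 2 lower by at least 0.32. CREB3L1 and CREB3L2, membrane-bound transcription factors released from the ER, were 1.73-fold (5.47 against 6.26) and 1.55-fold higher (7.86 against 8.49). TRIB3, a target of ATF4 and CHOP, was 1.62-fold higher (5.86 against 6.56). ATF4 itself differed by 0.23 and DDIT3, the gene of CHOP, by -0.04. The 2 genes lower by at least 0.32 were MBTPS2 (-0.50) and CREB3L3 (-0.39). N-glycan transfer and trimming had a median of 0.11 over 24 genes, 7 higher and 1 lower by that size. GANAB, the catalytic subunit of glucosidase II, which prepares glycans for CALR and CANX, was 2.47-fold higher (7.96 against 9.26). ALG14, needed for an early step of glycan assembly, was 1.63-fold and MOGS, glucosidase I, 1.5-fold higher. In these 2 lists 50% and 29.2% of genes were higher by at least 0.32, and 11.1% and 4.17% lower. Among the other folding genes 53.3% were higher and 6.67% lower by that size. The shares of all detected genes were 16.7% and 12.0%.

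The COPI coat and KDEL receptors, which return escaped ER proteins from the Golgi, had 14 of 15 genes higher and 4 past 0.32, with a median of 0.20. The coat subunits COPE and COPG1 were 1.55-fold and 1.35-fold higher, and GBF1, which activates the ARF proteins that recruit the coat, 1.44-fold. Other COPII and export genes had a median of 0.15 over 30 genes, 6 higher and 2 lower by at least 0.32. The fusion proteins YKT6 and STX5 were 1.61-fold and 1.51-fold higher, and CNIH1, a cargo receptor, 1.47-fold lower (9.28 against 8.73). Signal recognition and signal peptide removal had a median of 0.04 over 20 genes, 2 higher and 1 lower by that size. SEC61A2, the paralog of SEC61A1, was 1.52-fold lower (6.81 against 6.21), TRAM2, a translocon-associated protein, 1.34-fold higher and SRPRA, a subunit of the signal recognition particle receptor, 1.28-fold higher. Other degradation genes had a median of -0.01 over 26 genes, with 3 higher and 3 lower by that size. ERLIN2, a membrane scaffold, was 1.65-fold higher. SVIP, an inhibitor of the pathway, and YOD1, a deubiquitinase, were 1.59-fold and 1.54-fold lower. By at least 0.32, 26.7% of the COPI list and 20.0% of the COPII list were higher, against 16.7% of detected genes. In the signal recognition and degradation lists the higher and lower shares lay under the 16.7% and 12.0% of detected genes. Any difference above 0 was seen in 93.3% of the COPI list and 49.9% of detected genes. These contrasts were not tested.

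**Figure D4:**
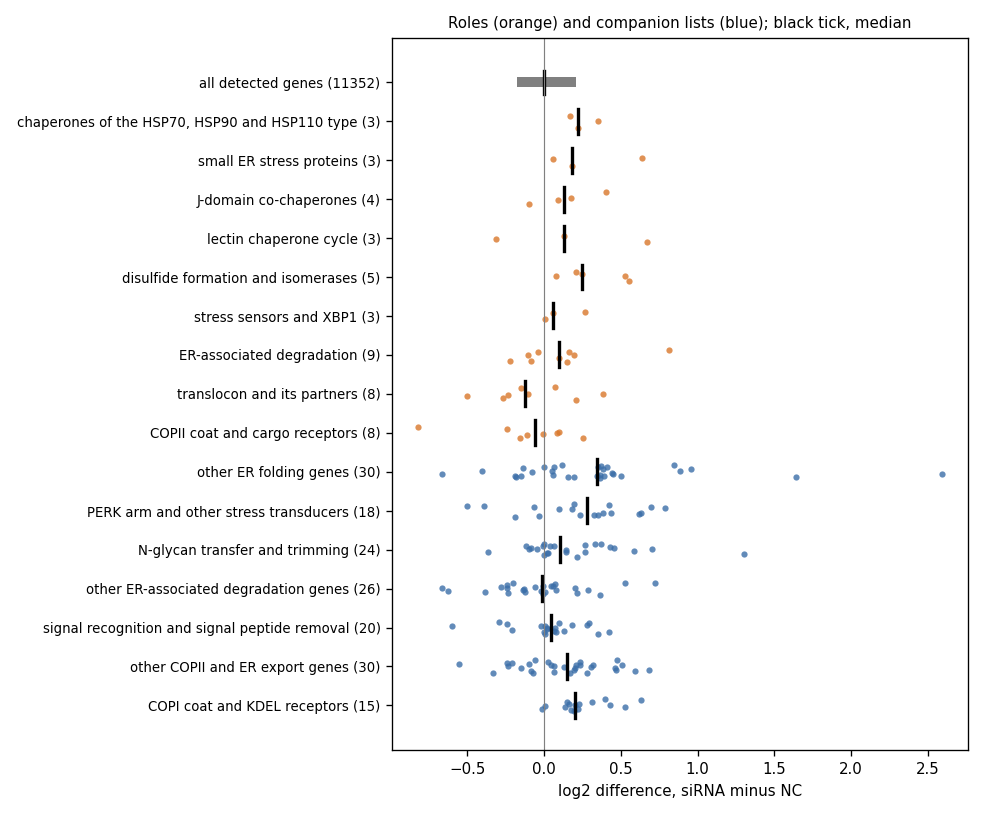
Log2 difference, siRNA minus NC (x axis), of each detected gene by role of the members (orange) and by companion list (blue), with the number of genes in parentheses; black ticks are medians and the grey bar spans the quartiles of all 11352 detected genes. The other ER folding genes have the highest median, 0.35, and the translocon role the lowest, -0.12.

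Of the 13 hepatocyte line markers, 8 were lower and 4 higher by at least 0.32, against 12.0% and 16.7% of detected genes, and their median was -0.50. The list holds secreted proteins and also FOXA2, a nuclear factor, and the cytoplasmic keratins KRT8 and KRT18, which do not pass through the ER and differed by -0.04, 0.45 and 0.71. The 8 markers lower by at least 0.32 were all secreted proteins. Secreted proteins also make up most of the list, so this is largely set by the choice of markers. They were AFP (-1.97), SERPINA1 (-1.67), APOB (-1.35, 10.67 against 9.32), TF (-1.09), FGA (-0.78), APOA1 (-0.71), ALB (-0.5) and FGB (-0.46). The secreted proteins TTR and APOA2 were higher, by 1.41 (8.31 against 9.72) and 0.4. The part of these markers in the differences of the members was not tested.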

How the data were processed

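Total RNA of 2 Huh-7 cultures (NC and DEPDC1 siRNA, 1 array each) was measured on Affymetrix arrays. The authors deposited log2 values of 33297 probe sets. Their unit is stated in no label and was read from the values (1.39 to 12.7, with sorted columns within 0.0997 of each other). Affymetrix Expression Console and Transcriptome Analysis Console 3.0 are named in the submitters' processing notes. Background correction, normalization and build are not given in the sources used here. Values were used without rescaling.

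By GEO's platform annotation 19460 probe sets had 1 gene, 1754 had several and 12083 had none listed. Older symbols were matched through RefSeq synonyms (ERO1LB to ERO1B). Per gene the probe set with the highest mean was used. Differences were computed in Python 3.11.15 with pandas 2.3.3. The code was run on simulated arrays with set differences larger than that of any member. That run does not bear on differences as small as those of the members. With 1 array per group no statistical test was run, and the number of arrays limits the precision.

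The members and lists were chosen with earlier results of these data known. Named are all members, DEPDC1, 3 genes with the largest absolute difference per companion list and markers. ALG12, EIF2AK3, ATF4, DDIT3, MBTPS2, CREB3L3 and the markers named were picked after their values were seen. Alternatives covered probe sets, filter, scaling, background and pseudocount. Protein sequences were not analysed here.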

Additional observations from a re-analysis of the deposited data

How the results depend on the processing

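Under all 8 alternatives (mean of a gene's probe sets, no filter, a filter at the 75th percentile, centring on the median, quantile normalization, a lowess curve on the level, subtraction of the 10th percentile and a pseudocount of 16), 8 members were higher and 2 lower by at least 0.32 (a log2 difference), and none was 2-fold different. These were the same 10 genes each time. A change of filter leaves a gene's difference as it is, and centring subtracted a median of 0.00. The mean of probe sets can change only P4HB among the members. All alternatives use the same arrays, so they do not bear on reproducibility. The median of the members stayed between 0.09 and 0.10. No median of a role or companion list and no called member changed sign. Of 363 member values, 4 moved by more than the median disagreement of probe sets: CRELD2 (0.53), PDIA5 (0.44) and EDEM2 (0.72) with the pseudocount, and P4HB (0.67) with the mean of its probe sets. With the 75th percentile filter 41 members were left, and 3 role medians moved, those of the small stress proteins (0.35), disulfide genes (0.39) and sensors (0.16), since fewer genes were counted. No paired analysis was possible because each group has 1 array, and for the same reason no array could be left out. The search for protein tail signals was not run. Background signal compresses the differences of dim genes such as DERL3.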

Other observations

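ERSE and ERSE-II sites also lay in promoter windows of detected genes that are no members. Of 18 such genes, 12 were higher and 6 lower in the siRNA array, with a median of 0.19 and a range of -1.01 to 1.1. By at least 0.32, 6 were higher and 2 lower, against 16.7% and 12.0% of all detected genes. Of 105 other detected genes with the XBP1 motif, 62 were higher and 43 lower, with a median of 0.07, and 22 were higher and 6 lower by at least 0.32. Over all detected genes the median was 0.00, and the 22 of 105 lie near the share of 16.7%. No test was made of these sets.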
